A study of Mus musculus with 8 samples.

Results

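The cytosolic heat shock proteins are the chaperones and the regulator of the heat shock response in the cytosol and nucleus, followed here through 10 genes, Hspa1a, Hspa1b, Hsph1, Hspa8, Hsp90aa1, Hsp90ab1, Dnajb1, Hspb1, Hspa4l and Hsf1, in the lungs of mice with and without Atf4. The genes were chosen by name, and each was read from the transcript cluster, the array's set of probes along 1 transcript, that the platform annotation gives to that gene symbol alone. Where a gene had several such clusters, the one with the highest mean signal over the 8 arrays was used. Of the 10 genes, 7 had such a cluster, out of 30176 genes and 65956 transcript clusters on the array. Hspa1b shared its cluster with Hspa1a, and Hsp90ab1 and Hsf1 had no cluster of their own symbol, so these 3 were not measured here. Total RNA from whole lungs of 8 mice, 1 array per mouse, was hybridized to Clariom D mouse arrays, and values are log2 signals. All mice carried a tamoxifen-inducible Cre recombinase expressed from the Rosa26 locus, which is active in all tissues, and received tamoxifen 4 weeks before their lungs were collected. The 4 Atf4wt/wt mice (WT) kept intact Atf4 alleles and the 4 Atf4D/D mice (KO) had floxed Atf4 alleles excised. All 8 were 13 weeks old and free of tumours, and each group held 3 males and 1 female (WT replicate 3 and KO replicate 2).

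Heat shock proteins bind unfolded polypeptides and help them to fold, to stay soluble or to be degraded. The HSP70 chaperones (Hspa1a, Hspa1b, Hspa8) work with an HSP40 partner (Dnajb1) that brings them substrates and with HSP110 proteins (Hsph1, Hspa4l) that exchange their nucleotide. HSP90 (Hsp90aa1, Hsp90ab1) acts later, on clients such as kinases and steroid receptors, and the small heat shock protein Hspb1 holds unfolded proteins without using ATP. Hspa8 is made in all cells at all times, whereas Hspa1a, Hspa1b, Hsph1, Dnajb1, Hspb1 and Hsp90aa1 are induced when the transcription factor HSF1 binds heat shock elements in their promoters. Atf4 drives a separate programme, the integrated stress response, which serves amino acid supply and protein synthesis.

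The promoters of the inducible members are shown because the binding motif of HSF1 and that of ATF4 can be read in them. In the RefSeq table (GRCm38.p6), 6 of the 10 genes had a promoter, and 4 of the 6 held a heat shock element, searched as GAANNTTC or TTCNNGAA on both strands of the 250 bases before the transcription start. Of all 32851 promoters in the table, 12.8% held such a motif over the same length. The capitals mark it, each sequence reads 5′ to 3′ on the strand of the gene, and positions are counted back from the start.
Hspa1a, chr17:34972157-34972406, minus strand: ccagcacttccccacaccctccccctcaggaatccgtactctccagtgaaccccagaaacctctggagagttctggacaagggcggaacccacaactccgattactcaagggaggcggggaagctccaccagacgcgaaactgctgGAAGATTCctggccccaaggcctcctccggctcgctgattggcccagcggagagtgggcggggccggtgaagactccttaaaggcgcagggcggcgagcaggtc
Hspa1b, chr17:34959239-34959488, minus strand: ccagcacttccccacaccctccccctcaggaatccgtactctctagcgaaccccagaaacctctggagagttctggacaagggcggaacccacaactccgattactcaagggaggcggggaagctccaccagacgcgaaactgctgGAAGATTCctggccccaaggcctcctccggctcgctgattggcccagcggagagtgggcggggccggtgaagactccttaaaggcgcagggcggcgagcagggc
Hspb1, chr5:135887789-135887848, plus strand: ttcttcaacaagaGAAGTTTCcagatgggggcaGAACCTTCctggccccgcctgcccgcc
Hsph1, chr5:149636337-149636396, minus strand: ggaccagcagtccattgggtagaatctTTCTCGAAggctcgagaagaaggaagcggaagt
The Hspa1a and Hspa1b promoters differed at 3 of 250 bases, and in both genes the element began 104 bases before the start. Hspb1 held 2 elements, beginning 117 and 97 bases before the start, and 1.46% of all promoters held at least 2. In Hsph1 the element began 33 bases before the start shown and 54 bases before the other start in the table. The windows of Dnajb1 and Hspa4l held no match to these letters. The ATF4 element, searched as TGATGNAA on both strands, was found in 0 of the 6 promoters and in 3.45% of all promoters.

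Median signals of the 8 arrays ran from 5.212 to 5.289, and pairwise correlations over clusters from 0.988 to 0.996. Atf4 itself read 6.99, 8.03, 8.0 and 7.58 in WT replicates 1 to 4 and 6.34, 6.26, 6.48 and 6.38 in KO replicates 1 to 4. The groups did not overlap, and Atf4 fell by 1.29 in KO lungs (SE 0.21, limma adjusted p = 0.0485), a call that was lost in 11 of 18 alternative analyses (adjusted p from 0.00902 to 0.301). Lung identity was plain in all arrays, with the mean of 8 epithelial markers between 16.03 and 16.30. Markers of other cell types differed between the genotypes, where 0.276% of all clusters were called. Of 6 fibroblast markers all had the lower mean in KO lungs and 3 were called. The mean was higher for 7 of 7 platelet markers (3 called), 3 of 3 erythroid markers (1 called) and 10 of 10 neutrophil markers (0 called), and the part of these cells in the values below was not tested. In whole lung, fewer cells of a type and less RNA per cell cannot be told apart.

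No measured heat shock gene passed the test between the genotypes. Of the 7, 0 were called at the thresholds used throughout, an adjusted p of at most 0.05 over all clusters and a fold above 1.5, against 0.276% of all clusters (182 of 65956, with 0.229% higher and 0.047% lower in KO lungs). In the same fit 0 of the 7 reached an unadjusted p under 0.05, which 12% of all clusters did. All 7 had the lower mean in KO lungs, with differences of -0.08 to -0.35 on the log2 scale, and so did 61% of all clusters. The 95% confidence intervals of 4 of the 7, Hspa8, Hsp90aa1, Dnajb1 and Hspa4l, lay within a 1.5-fold change (0.58 on the log2 scale) in either direction, whereas those of Hspa1a, Hsph1 and Hspb1 were wider. The plot of the members by array shows that 1 WT lung, replicate 2, stood above all others for every measured gene.

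**Figure D1:**
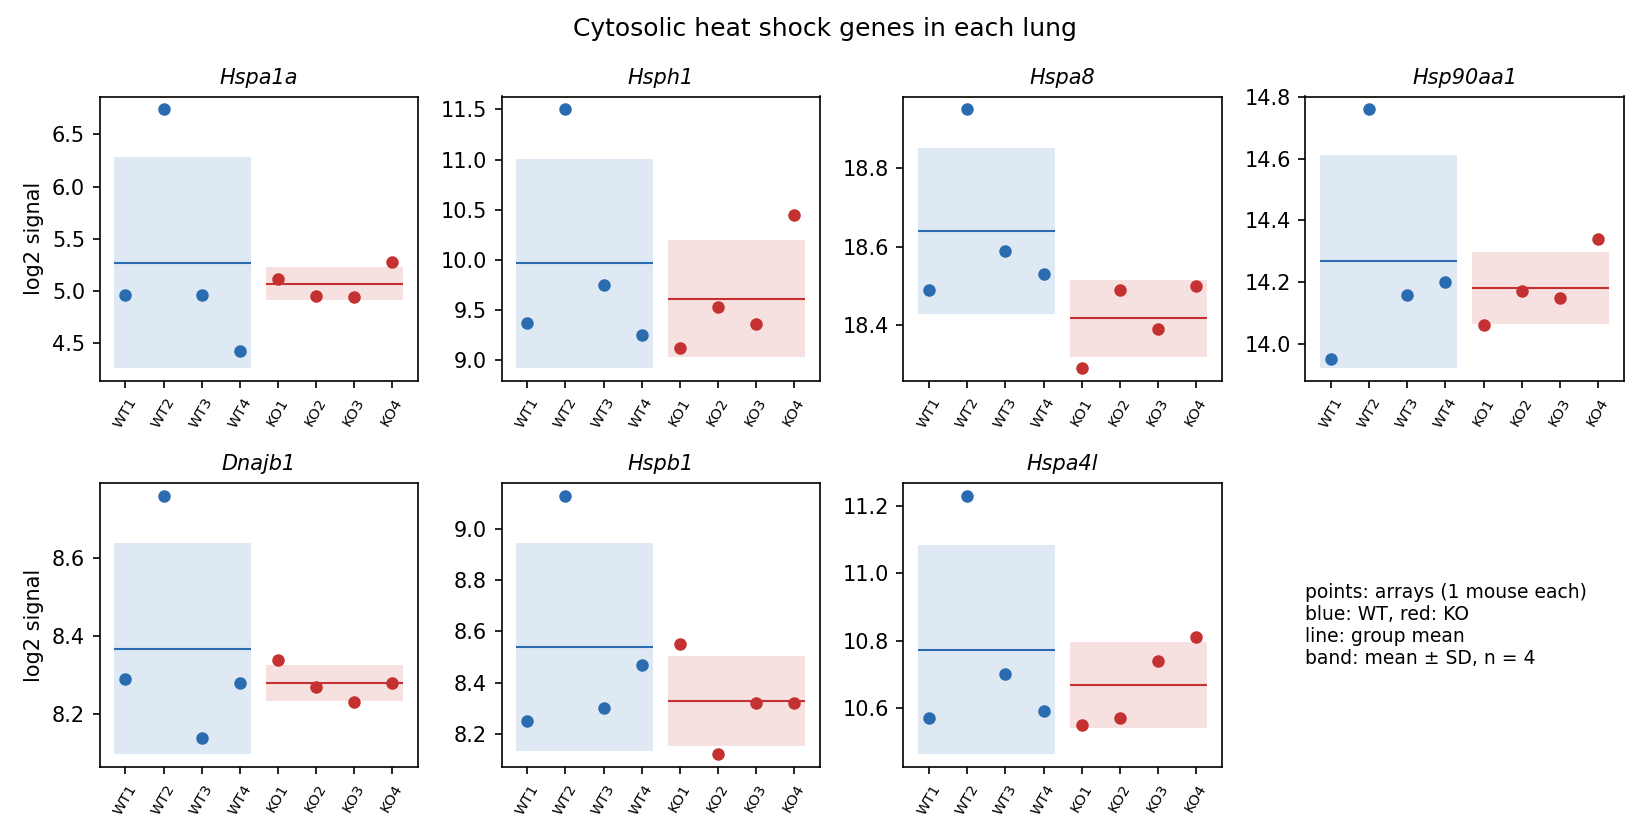
Log2 signal (y axis) of the 7 measured heat shock genes in each of the 8 lungs (x axis, WT in blue, KO in red), with the group mean as a line and mean ± SD (n = 4) as a band. WT replicate 2 was the highest array for all 7 genes, and KO replicate 4 was second for Hspa1a, Hsph1, Hsp90aa1 and Hspa4l.

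Among the HSP70 genes, the inducible Hspa1a read 4.96, 6.74, 4.96 and 4.43 in WT replicates 1 to 4 and 5.12, 4.95, 4.94 and 5.28 in KO replicates 1 to 4. Apart from WT replicate 2, all lungs were close to the median signal of the array, and the groups overlapped. The KO minus WT difference was -0.20 (SE 0.42, 95% confidence interval -1.15 to 0.75, limma adjusted p = 0.898). The neighbouring cluster on chromosome 17 that is annotated jointly to Hspa1b and Hspa1a also had WT replicate 2 above all other lungs. It read 6.56, 8.39, 6.54 and 6.20 in WT lungs and 6.58, 6.90, 6.65 and 6.95 in KO lungs, with a difference of -0.16 (adjusted p = 0.92). The signals of these near-identical genes cannot be separated in it.

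The constitutive Hspa8 read 18.49, 18.95, 18.59 and 18.53 in WT lungs and 18.29, 18.49, 18.39 and 18.50 in KO lungs. It had the largest difference of the 7 relative to its error, and the groups overlapped only at the lowest WT and the highest KO lungs. The difference was -0.22 (SE 0.11, interval -0.46 to 0.02, adjusted p = 0.46). The 4 clusters with the Hspa8 symbol alone carry the chromosomes 1, 1, 6 and 14 in their names, whereas the gene lies on chromosome 9, so whether they read the gene itself is uncertain. The other 3 differed by -0.23, -0.25 and -0.23 (adjusted p from 0.392 to 0.451), and for both chromosome 1 clusters the groups did not overlap, as was so for 7.24% of all clusters. The chromosome 9 cluster, annotated to Hspa8 and to snoRNA genes in its introns, read 13.07, 13.60, 13.13 and 13.06 in WT lungs and 12.98, 13.33, 13.08 and 13.28 in KO lungs. Here the difference was -0.05 (adjusted p = 0.931), smaller than in the clusters of the single symbol, while WT replicate 2 was again highest. A cluster with chromosome 5 in its name, annotated jointly to Hspa8 and a predicted gene, differed by -0.03 (adjusted p = 0.959). WT replicate 2 was highest in it too, and the groups overlapped.

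Of the HSP110 genes, Hsph1 was the most variable of the 7. It read 9.37, 11.50, 9.75 and 9.25 in WT lungs and 9.12, 9.53, 9.36 and 10.45 in KO lungs. One lung in each genotype was far above the other 3, WT replicate 2 by 4.39-fold over their median and KO replicate 4 by 2.13-fold. The difference was -0.35 (SE 0.49, interval -1.46 to 0.75, adjusted p = 0.831). Hspa4l, its relative, read 10.57, 11.23, 10.70 and 10.59 in WT lungs and 10.55, 10.57, 10.74 and 10.81 in KO lungs. The same 2 lungs led their groups, by less than for Hsph1, and the difference was -0.10 (SE 0.14, interval -0.43 to 0.22, adjusted p = 0.833).

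Hsp90aa1, the inducible HSP90, read 13.95, 14.76, 14.16 and 14.20 in WT lungs and 14.06, 14.17, 14.15 and 14.34 in KO lungs. The KO lungs lay inside the range of the WT lungs, and the difference was -0.09 (SE 0.16, interval -0.44 to 0.27, adjusted p = 0.873). A pair of further clusters, annotated jointly to Hsp90aa1 and a predicted gene, differed by 0.03 and 0.00 (adjusted p = 0.977 and 0.997). In both, the highest array was WT replicate 2.

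Dnajb1, the inducible HSP40, read 8.29, 8.76, 8.14 and 8.28 in WT lungs and 8.34, 8.27, 8.23 and 8.28 in KO lungs. The 4 KO lungs were nearly alike (SD 0.05), and the difference was -0.08 (SE 0.12, interval -0.36 to 0.19, adjusted p = 0.837). The small heat shock protein Hspb1 read 8.25, 9.13, 8.30 and 8.47 in WT lungs and 8.55, 8.12, 8.32 and 8.32 in KO lungs. Again the groups overlapped, with a difference of -0.21 (SE 0.19, interval -0.63 to 0.22, adjusted p = 0.72).

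The spread within the WT group was set by 1 lung. WT replicate 2 exceeded the median of the other 3 WT lungs by 0.42 (Hspa8) to 2.13 (Hsph1) on the log2 scale, that is by 1.34-fold to 4.39-fold, and for 5 of the 7 genes by more than 1.5-fold. Among all clusters 1.36% stood out by more than 1.5-fold in that lung, and among the 17571 genes of the brighter part of the array, those with a mean above the median signal, 2.12% did. The excess was 3.44-fold for Hspa1a, 1.78-fold for Hspb1, 1.55-fold for Hspa4l, 1.52-fold for Hsp90aa1 and 1.39-fold for Dnajb1. Hspa1a and Hsph1 had the widest excess, although for Hspa1a the other WT lungs were below the array's median signal. For Hspa8 the excess was 0.42 on the log2 scale in the cluster used, which lies near the highest signals of the array, and 0.53 in the chromosome 9 cluster, on either side of the 0.48 of Dnajb1. WT replicate 2 was the highest of the 8 arrays for 7 of 7 members, and for 21.9% of all clusters (21.5% of the brighter genes), the largest share of any array. KO replicate 4 was highest for 0 of 7 (7.22% of all clusters), and it exceeded the other KO lungs by more than 1.5-fold for 1, Hsph1 (0.755% of all clusters). The mean of 1932 small RNA genes (snRNA, snoRNA and rRNA) was 6.53, 7.12, 6.92 and 7.04 in WT lungs. In KO lungs it was 6.79, 6.79, 6.68 and 6.6. The part of RNA preparation in the heat shock values was not tested.

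The SD between lungs was larger in the WT group than in the KO group for all 7 genes, at 1.01 against 0.16 for Hspa1a, 1.04 against 0.58 for Hsph1, 0.21 against 0.10 for Hspa8, 0.35 against 0.12 for Hsp90aa1, 0.27 against 0.05 for Dnajb1, 0.41 against 0.18 for Hspb1 and 0.31 against 0.13 for Hspa4l. Leaving out WT replicate 2, the farthest WT lung for all 7 genes, lowers the WT SD by construction. The SD of the other 3 WT lungs was larger than that of the 4 KO lungs for 3 of the 7. The WT SDs of Hspa1a and Hsph1 were above those of 98.7% of the clusters over the median signal, although the mean of Hspa1a itself lies below that median. Among the KO SDs that of Hsph1 ranked highest, above 98.1% of those clusters, with KO replicate 4 far from the other 3.

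The comparison was repeated without WT replicate 2, with 3 WT and 4 KO lungs. That lung was the highest of all for each of the 7 genes, so leaving it out raises every difference by construction. The direction turned for 5 of the 7 genes. Hspa1a was then higher in KO lungs by 0.29 (interval -0.05 to 0.64), Hsph1 by 0.16 (interval -0.52 to 0.83), Hsp90aa1 by 0.08 (interval -0.14 to 0.29), Dnajb1 by 0.05 (interval -0.11 to 0.20) and Hspa4l by 0.05 (interval -0.15 to 0.24). Hspa8 and Hspb1 kept lower KO means, with differences of -0.12 (interval -0.29 to 0.05) and -0.01 (interval -0.26 to 0.24). None of the 7 passed the test in this fit either (limma adjusted p from 0.571 to 0.989), so no direction is claimed for any of them.

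**Figure D2:**
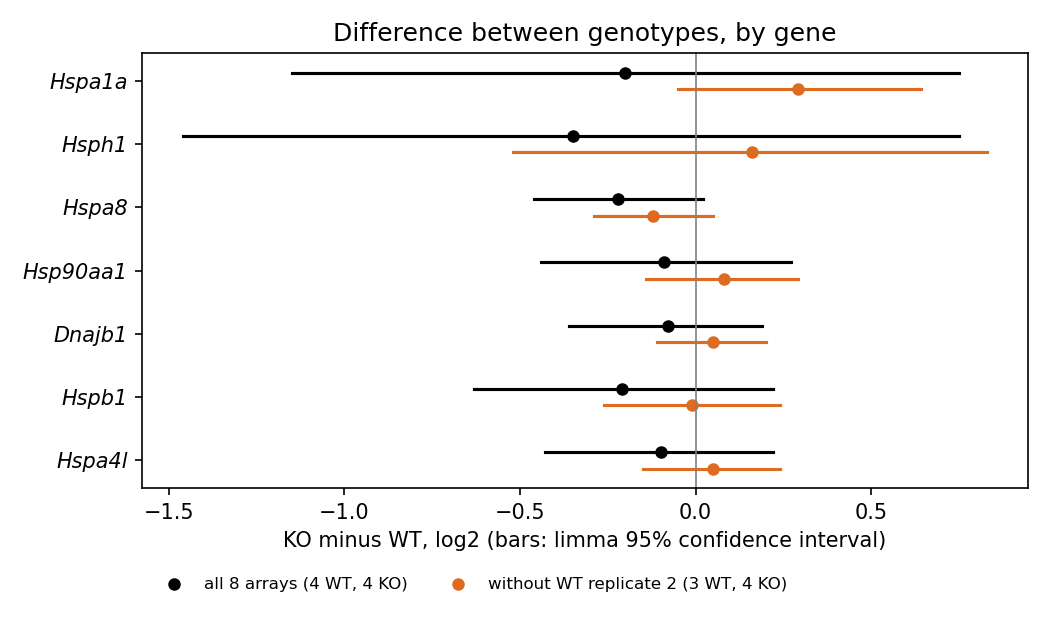
KO minus WT difference on the log2 scale (x axis) for each measured gene (y axis), with limma 95% confidence intervals as bars, from all 8 arrays (black) and without WT replicate 2 (orange). All black points lie below 0 and 5 of the 7 orange points above it, and every interval includes 0. WT replicate 2 was the highest lung for all 7, so leaving it out moves every point to the right by construction.

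The partners of these chaperones were read from lists of 63 further genes of the pathway, of which 57 were measured. None was called (0 of 57, smallest adjusted p 0.192), and 7.02% reached an unadjusted p under 0.05, against 12% of all clusters. WT replicate 2 was the highest array for 25 of the 57 (43.9%, against 21.9% of all clusters). It exceeded the other WT lungs by more than 1.5-fold for 7 (12.3%, against 1.36% of all clusters). These shares, and the 61% of all clusters with the lower mean in KO lungs, stand beside the counts of each list below.

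Of the 7 HSP70 and HSP110 relatives, 6 had the lower mean in KO lungs (61% of all clusters), and WT replicate 2 was highest for 5 (21.9%). Hspa12b, an endothelial HSP70 relative, differed by -0.36 (adjusted p = 0.486), Hspa13 by -0.19 (0.562) and Hspa14 by -0.10 (0.537). Among 15 HSP40 proteins and HSP70 co-chaperones, Bag3, a heat-inducible nucleotide exchange factor that links HSP70 to autophagy, had the smallest p. It read 11.78, 11.49, 11.62 and 11.35 in WT lungs and 11.88, 11.86, 11.99 and 11.91 in KO lungs. The groups did not overlap, but the difference of 0.35 did not pass after adjustment (adjusted p = 0.192). Unlike the heat shock genes, Bag3 was not high in WT replicate 2. Sgta, a co-chaperone of tail-anchored proteins, differed by 0.19 (0.446) and Dnajb5 by 0.16 (0.467).

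Of the 12 HSP90 co-chaperones, 6 were highest in WT replicate 2. Stip1, which joins HSP70 to HSP90, exceeded the other WT lungs by 1.06 on the log2 scale in WT replicate 2, and Fkbp4, an immunophilin of steroid receptor complexes, by 0.91. Chordc1 was higher there by 0.63 and Ahsa1, which stimulates the ATPase of HSP90, by 0.62. For comparison, the excess in the same lung was 0.64 for Hspa4l and 0.83 for Hspb1. Fkbp5, a glucocorticoid-induced immunophilin, went the other way and read 8.67, 7.33, 8.06 and 7.47 in WT lungs and 8.38, 7.98, 7.89 and 7.40 in KO lungs. Its lowest lungs were the same WT replicate 2 and KO replicate 4 in which Hsph1 was highest. Between genotypes, Cdc37, the kinase-specific co-chaperone, differed by -0.36 (adjusted p = 0.336), Ppid, a cyclophilin, by -0.22 (0.365) and Ttc4 by -0.14 (0.505).

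The other small heat shock proteins did not share the pattern of Hspb1. WT replicate 2 was highest for 0 of 6, and Hspb7, a muscle protein, ranged from 8.28 to 11.67 over lungs of both genotypes. Hspb8 differed by -0.18 (adjusted p = 0.544), Hspb2 by -0.17 (0.594) and Hspb3 by 0.12 (0.593). Of 5 heat shock factors and regulators WT replicate 2 was highest for 1, Hsf2, which differed between genotypes by -0.09 (adjusted p = 0.561), Hsf4 by 0.05 (0.755) and Hsf5 by -0.06 (0.777). None of the 5 passed the test between the genotypes. For the chaperonin TRiC, a ring that folds actin and tubulin, and its partner prefoldin, 9 of 12 subunits were highest in WT replicate 2. Cct3 was higher there by 0.62 and Cct8 by 0.53, while between genotypes Pfdn2 differed by -0.17 (adjusted p = 0.414), Cct7 by -0.26 (0.485) and Cct4 by -0.17 (0.524).

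**Figure D3:**
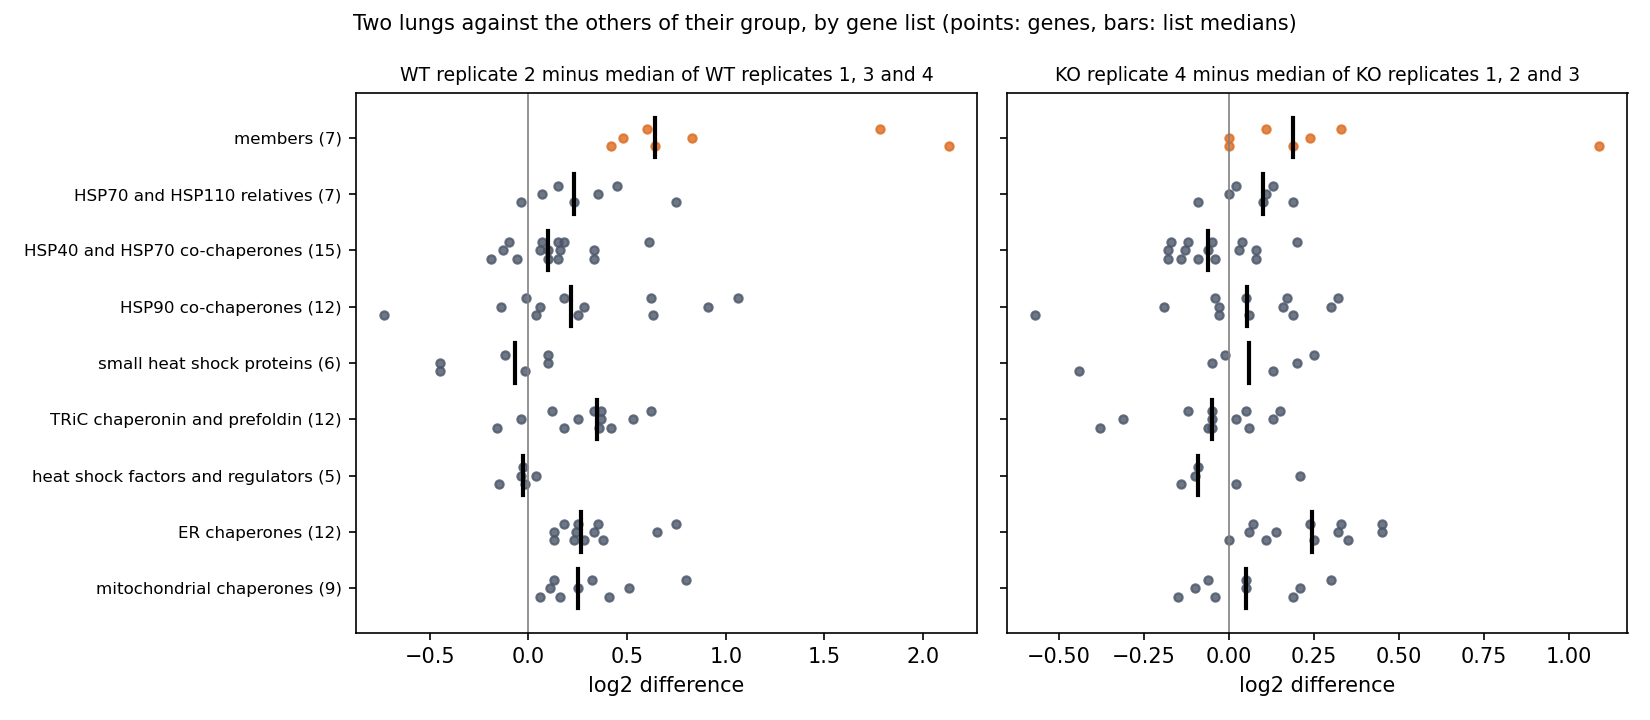
Log2 difference (x axes) of WT replicate 2 from the median of WT replicates 1, 3 and 4 (left) and of KO replicate 4 from the median of KO replicates 1, 2 and 3 (right), for the genes of each list (y axis, number measured in brackets), with list medians as bars. The medians in WT replicate 2 are 0.64 for the 7 members, 0.35 for TRiC and prefoldin, 0.27 for ER chaperones and 0.25 for mitochondrial chaperones. In KO replicate 4 the medians of the same lists are 0.19, -0.05, 0.25 and 0.05.

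Chaperones of other compartments also answer to other regulators, the unfolded protein responses of the endoplasmic reticulum and of mitochondria. Which regulator acted on them here was not tested. Of 12 ER chaperones 10 were highest in WT replicate 2, and of 9 mitochondrial chaperones 7 were, against 21.9% of all clusters. The median excess was 0.27 for the ER list and 0.25 for the mitochondrial list, against 0.64 for the cytosolic members. The other cytosolic lists lay lower, at 0.35 for TRiC and prefoldin, 0.23 for the HSP70 and HSP110 relatives, 0.21 for the HSP90 co-chaperones, 0.10 for the HSP40 and HSP70 co-chaperones and -0.07 for the small heat shock proteins. Hspd1, the mitochondrial HSP60, exceeded the other WT lungs by 0.80 in WT replicate 2. In KO replicate 4 the median excess was highest for the ER chaperones, at 0.25, against 0.19 for the cytosolic members and 0.05 for the mitochondrial chaperones. The other cytosolic lists lay between -0.06 and 0.10 in that lung. None of either list was called between the genotypes. The mean was lower in KO lungs for 11 of 12 ER chaperones and 8 of 9 mitochondrial chaperones, against 61% of all clusters. At an unadjusted limma p under 0.05 were 5 of these ER and 2 of these mitochondrial chaperones, against 12% of all clusters in either direction. The ER chaperone Hsp90b1 came closest, at 15.25, 15.61, 15.43 and 15.52 in WT lungs and 14.90, 14.99, 15.07 and 15.23 in KO lungs. The groups did not overlap, and the difference was -0.40 (SE 0.10, adjusted p = 0.165). For its cytosolic paralogue Hsp90aa1 the difference was -0.09 (SE 0.16), with an interval of -0.44 to 0.27 that includes -0.40. These genes were not tested against each other. The others of smallest p in the ER were Dnajc3, an HSP40 of the ER (-0.21, adjusted p = 0.347), and Pdia3, a disulfide isomerase (-0.24, 0.357). In mitochondria they were Clpx and Lonp1, of the matrix proteases (-0.18, 0.341 and -0.15, 0.409), and Hspe1, the partner of HSP60 (-0.25, 0.516).

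The mean of the 5 measured inducible members was 8.96, 10.18, 9.06 and 8.93 in WT lungs and 9.04, 9.01, 9.0 and 9.33 in KO lungs. The highest lung was WT replicate 2 and the second KO replicate 4. Among 12105 named genes over the median signal, those whose pattern over the 8 arrays was most like this mean were Gapvd1, an endocytosis factor (Pearson r = 0.987), Mdn1, a ribosome assembly ATPase (0.973), Slurp1, a secreted peptide (0.972), Stip1 (0.972), Nos3, the endothelial nitric oxide synthase (0.970) and Mrps28, a mitochondrial ribosomal protein (0.969). Since that mean is 10.18 in WT replicate 2 and at most 9.33 elsewhere, the choice by correlation itself fixes a peak in that lung, and each r is carried largely by 1 array. Stip1 read 10.57, 11.63, 10.88 and 10.57 in WT lungs and 10.64, 10.69, 10.78 and 10.99 in KO lungs. Slurp1 showed the widest excess of the 6, at 7.44 in WT replicate 2 and 5.80 in KO replicate 4 against 4.79 to 5.29 in the other lungs.

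Genes that respond to handling of an animal or tissue were set beside these values. WT replicate 2 was highest for 3 of 13 immediate-early genes, which are transcribed within minutes of a stimulus. The mean was higher in KO lungs for 10 of the 13, whereas 61% of all clusters had the lower mean there. Dusp1, a MAP kinase phosphatase, differed by 0.68 (adjusted p = 0.135) and Zfp36, which promotes mRNA decay, by 0.40 (0.242). Klf2, a flow-responsive endothelial transcription factor, differed by 0.69 (0.261), and 0 of 13 were called. At an unadjusted limma p under 0.05, 4 of the 13 were higher in KO lungs and 0 lower, against 12% of all clusters in either direction. WT replicate 2 and KO replicate 4 were both the highest lungs of their groups in 0 of the 13. Among all clusters it was 7.29%, and 13 genes are too few to tell 0 from that share. The same count was 6 of 12 for ER chaperones, 6 of 12 for HSP90 co-chaperones and 3 of 9 for mitochondrial chaperones. It was 2 of 7 for HSP70 and HSP110 relatives, 2 of 12 for TRiC and prefoldin and 2 of 15 for HSP40 and HSP70 co-chaperones. For the small heat shock proteins it was 0 of 6, and for the heat shock factors and regulators 0 of 5. The part of handling in the heat shock values was not tested. Cirbp, a cold-inducible RNA-binding protein, read 8.57, 8.33, 8.65 and 8.74 in WT lungs and 8.91, 8.66, 8.61 and 8.17 in KO lungs. Its 2 lowest lungs were WT replicate 2 and KO replicate 4. Between genotypes it differed by 0.02 (adjusted p = 0.981), with a sign that turned in 4 of 18 alternative analyses, array weights (-0.05) among them.

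Of 14 circadian clock genes, 4 were lowest of their group in both WT replicate 2 and KO replicate 4 (Per1, Per2, Cry1 and Hlf), 3 were highest in both (Nr1d1, Arntl and Clock) and 7 were neither, against 5.61% and 7.29% of all clusters. The values of 4 of them are given, picked after they were seen. Per2, a repressor arm of the clock, read 11.82, 10.42, 11.33 and 11.43 in WT lungs and 12.17, 11.63, 11.97 and 10.85 in KO lungs. Arntl, the activator, read 6.69, 7.32, 6.72 and 6.17 in WT lungs and 6.63, 6.82, 6.62 and 7.38 in KO lungs. In each genotype the lung with the highest Hsph1 had the lowest Per2 and the highest Arntl. This did not hold for every member. Dnajb1 and Hspb1 were highest among KO lungs in replicate 1 (8.34 and 8.55), which had the highest Per2. The other members were highest among KO lungs in replicate 4. Dbp, a clock output gene, differed from the median of the others of its group by -0.27 in WT replicate 2 and by 0.56 in KO replicate 4. Nr1d1 was likewise highest of its group in both, at 15.29 in WT replicate 2 and 15.55 in KO replicate 4, and Per1 lowest, at 11.42 and 12.55. Between genotypes 0 of 14 clock genes were called, the smallest p being those of Npas2 (0.42, adjusted p = 0.193), Bhlhe41 (-0.39, 0.276) and Dbp (-0.42, 0.507). No source used here gives the hour at which each lung was taken, and its part in the heat shock values was not tested.

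**Figure D4:**
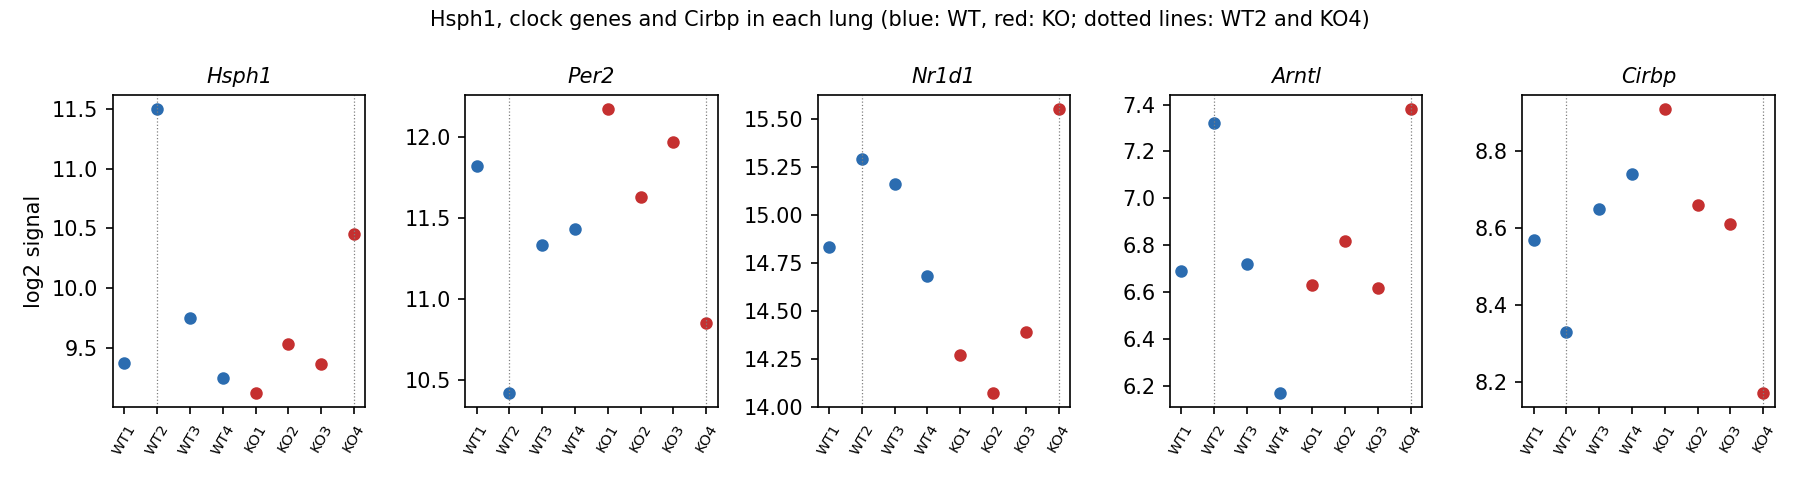
Log2 signal (y axis) of Hsph1, 3 clock genes and Cirbp in each lung (x axis, WT in blue, KO in red), with dotted lines at WT replicate 2 and KO replicate 4. In both lungs Hsph1, Nr1d1 and Arntl are the highest of the genotype and Per2 and Cirbp the lowest.

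Markers of several cell types differed between the genotypes. In KO lungs the fibroblast gene Col1a1 fell by 2.03 and Col3a1 fell by 2.46 (adjusted p = 0.016 and 0.0133), while the platelet genes Itgb3 and Tubb1 rose by 3.3 and 3.64 (0.0329 and 0.0368) and the erythroid gene Alas2 rose by 2.93 (0.041). These calls were lost under 5 (Col1a1, Col3a1), 9 (Itgb3) or 10 (Tubb1, Alas2) of the alternatives. For 8 cell type lists the median excess of WT replicate 2 over the other WT lungs lay between -0.52 (neutrophils) and 0.27 (platelets), below the 0.64 of the heat shock genes, and in the lymphocyte list it was -0.46. The mean of 7 platelet markers was 8.99 in WT replicate 2, inside the range of 8.45 to 10.77 of the WT lungs. The other markers of smallest p, given for completeness of the lists, did not pass the test, with differences of 3.70 for Slc4a1 (adjusted p = 0.0501), 3.16 for Csf3r (0.093), 2.96 for S100a9 (0.14), 0.76 for Vwf (0.0813), 0.32 for Pecam1 (0.168), -0.48 for Lamp3 (0.291), -0.19 for Sftpc (0.339), 0.44 for Ly6c2 (0.373), -0.35 for Ccr2 (0.422), -0.25 for Cd3d (0.346) and 0.31 for Ms4a1 (0.73).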

How the data were processed

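Lung RNA of 4 WT and 4 KO mice was measured on 1 array per mouse. The deposited values are log2 signals that the authors obtained in the Transcriptome Analysis Console with its default RMA, a procedure of background correction, quantile normalization and probe summary, so that a shift of most transcripts in 1 direction would not show. Signals of different clusters are not comparable as levels, and the number of arrays limits the precision. Genotype and replicate number were taken from the sample titles, which name biological replicates. Names came from the platform annotation, in which 30638 of 65956 clusters have 1 symbol, 2176 several and 33142 none listed. Promoters came from the RefSeq table of GRCm38.p6, and protein sequences were not used here.

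The test was limma 3.58.1 under R 4.3.3, by eBayes on a 2-group lmFit, two-sided and without covariates, with Benjamini-Hochberg adjustment over all 65956 clusters and no filter on dim clusters. Differences are KO minus WT on the log2 scale, and calls used the study's own cut-offs, adjusted p up to 0.05 with over 1.5-fold change. The fit was tested on simulated data. The members and the lists were chosen with earlier results of these data known. Named genes were Atf4, the members, the 3 genes of smallest p in each pathway, compartment and handling list, 2 in each cell type list, and the 6 genes most like the inducible members; Stip1, Fkbp4, Chordc1, Ahsa1, Fkbp5, Hspb7, Cct3, Cct8, Hspd1, Per1, Per2, Cry1, Hlf, Clock, Arntl and Nr1d1 were named after their values were seen. Alternatives were median-centring, cyclic loess, array weights, a filter on dim clusters, trend and robust eBayes, 1 cluster per gene, the methods' t-test, sex as a covariate, males only, a replicate block and each array left out in turn. The jointly annotated clusters of Hspa8 and Hspa1a were chosen as alternatives after seeing the data. Plots were made in matplotlib 3.10.9.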

Additional observations from a re-analysis of the deposited data

Results flagged for a closer look

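Each group of 71 named genes, 142 groups in all, was tested for a single far array. In 6 groups an array had a gap to the nearest other over Dixon's critical share of the group's range. Chance flags about 1 in 20 groups where genes are not picked by their values. Many of the 71, Fkbp4 among them, were named from their values in these arrays, so that rate does not apply to them. Fkbp4, the HSP90 co-chaperone, was 10.95 in WT replicate 2 against 10 to 10.15 in the other WT lungs. Ppid, another, was 10.55 in KO replicate 4 against 10.37 to 10.39. Hspa12b was 9.29 in KO replicate 1 against 9.62 to 9.68, and Hspb3 was 3.91 in KO replicate 2 against 3.60 to 3.64. The platelet gene Tubb1 was 12.27 in WT replicate 4 against 9.82 to 9.92, and 13.53 in KO replicate 4 against 14.24 to 14.37. None of the 7 heat shock genes was among them in either group. In the WT group, with WT replicate 2 highest, their ratios of gap to range lay between 0.687 (Hsp90aa1) and 0.805 (Hspa4l).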

How the results depend on the processing

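The count of heat shock genes called was 0 of 7, and that of list genes of the pathway 0, under every alternative run, where the filter on dim clusters left out Hspa1a. The count of transcript clusters called, 182, was 4 with males only and 0 with the methods' t-test, and ranged from 8 to 266 with 1 array left out (82 without WT replicate 2, 8 without WT replicate 3 or KO replicate 1, 65 without KO replicate 2, 89 without KO replicate 3). With the replicate number as a block it was 0, and the block changed no call of a heat shock gene. Same-numbered arrays did not deviate together (correlations from -0.187 to 0.061), so the numbers were not taken to pair the mice. With 1 array left out, the KO minus WT difference ranged from -0.48 to 0.29 for Hspa1a, -0.63 to 0.16 for Hsph1, -0.19 to 0.08 for Hsp90aa1, -0.16 to 0.05 for Dnajb1, -0.17 to 0.05 for Hspa4l, -0.27 to -0.12 for Hspa8, -0.30 to -0.01 for Hspb1 and -0.09 to 0.16 for Cirbp. For the 5 of these members whose sign turned, it turned without WT replicate 2 and under no other alternative run. The sign of Cirbp turned in 4 of its 18 alternatives, array weights (-0.05) among them. Of 990 values of 55 named genes under alternatives, 925 kept sign and side of the threshold, 50 lost a call, 6 gained one and 9 changed sign, and the cause was not tested. Signal limits Hspa1a, whose mean lies below the median of all clusters.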
